A study of Danio rerio with 24 samples.

Results

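The tfec locus was taken as a window of 100 kb on chromosome 4 of the zebrafish build danRer10, placed around the tfec promoter region that the study draws. All CpGs of this window that the methylation files list were members, 1550 in all. Of these, 1250 had at least 5 reads in all 4 libraries and were used, with the first at position 5975808 and the last at 6072659. The same requirement left 16909511 of 23256360 listed CpGs on the 25 chromosomes. In the RefSeq gene order of another build (GRCz12tu), tfec lies between arl1 and mdfic. No danRer10 annotation was used here, so the calls of promoter, intron and intergenic are those of the study.

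DNA methylation was measured by whole-genome bisulfite sequencing (WGBS), in which only unmethylated cytosines are converted, so that every read over a CpG tells whether it was methylated. There was 1 combined library for each of 4 cell types, and each combined 2 biological replicates. Neural crest cells (NCCs) were sorted as GFP-positive cells from Tg(crestinA:EGFP) embryos, in which a crestin element drives EGFP, at 15 somites (early NCCs) and at 24 hpf (late NCCs). Melanophores and iridophores came from mlphaj120 larvae at 4 to 5 dpf, a melanophilin mutant strain, and were enriched on a density gradient before sorting. NCCs and pigment cells thus differ in strain as well as in cell type and age, and these cannot be told apart here. The labelled cell types were not checked against expression markers, since mRNA-seq was not analysed here. In a bulk library, a level between 0% and 100% can come from cells that differ or from alleles that differ within each cell, and these cannot be told apart either.

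The gene tfec encodes a basic helix-loop-helix leucine zipper transcription factor of the MiT/TFE family, to which mitfa, the regulator of the melanophore fate, also belongs. In zebrafish, tfec is expressed in the neural crest and is required for iridophores, the reflective pigment cells whose shine comes from guanine crystals. Methylation of cytosine at CpGs is the usual state of the vertebrate genome, and active promoters and enhancers are often found in stretches where it is low.

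The window was methylated at nearly all of its length in NCCs, was less methylated in places in melanophores, and at more places and to lower levels in iridophores. The mean level of the 1250 CpGs was 87.6% in early and 86.2% in late NCCs, against 78.2% in melanophores and 68.5% in iridophores. The median coverage of a listed CpG in the window was 19, 27, 31 and 22 reads in the same order. The window was divided into tiles of 500 bp, of which 130 held at least 3 used CpGs, and the level of a tile was the mean over its CpGs. Tiles above 80% numbered 115 in early and 109 in late NCCs, against 88 in melanophores and 56 in iridophores. These were 88.5%, 83.8%, 67.7% and 43.1% of the 130, where the genome-wide shares were 81.6%, 80.1%, 72.3% and 71.4%. Tiles below 20% numbered 2 in each NCC library, 4 in melanophores and 13 in iridophores. These were 1.54%, 1.54%, 3.08% and 10% of the 130, where the genome-wide shares were 3.29%, 3.30%, 3.45% and 3.59%. Only the iridophore share below 20% was above its genome-wide share. The median tile was at 91.7%, 90.7%, 84.9% and 77.2%, against 92.4%, 91.3%, 88.5% and 87.8% over the 1742304 tiles of the genome. The iridophore library was therefore the one whose median tile lay furthest below its own genome-wide median.

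**Figure D1:**
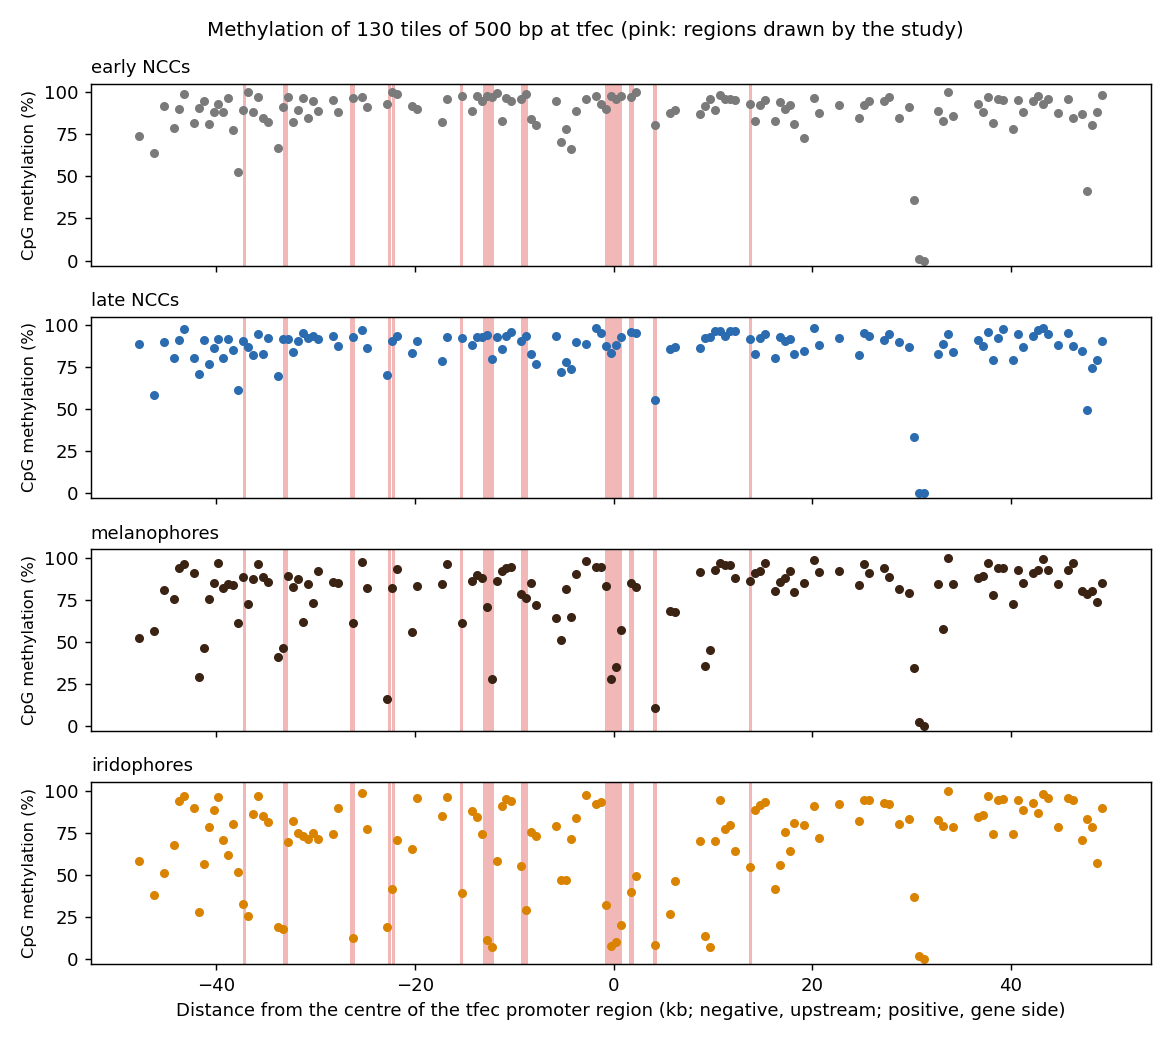
Methylation level (%) of the 130 tiles of 500 bp at tfec, 1 point per tile, against the distance in kb from the centre of the promoter region, with 1 panel for each combined library and the 12 drawn regions in pink. In the NCC panels nearly all points lie near the top. The iridophore panel has 13 tiles below 20% (10%, genome-wide 3.59%) against 2 in late NCCs (1.54%, genome-wide 3.30%).

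Reads summed over the CpGs of each tile were compared between libraries with a two-sided Fisher's exact test, adjusted by the Benjamini-Hochberg method over all tiles of the genome. A tile was called where the adjusted p was under 0.05 and the mean levels differed by at least 30 percentage points. The test compares the reads of 2 libraries, not replicated conditions, because the replicates were combined. A read over several CpGs counts at each of them, so p-values can be too small and intervals too narrow, and both cover counting error at most.

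Between early and late NCCs no tile at tfec was called, 0 lower and 0 higher, where 0.0894% of all tiles were called lower and 0.0217% higher. An adjusted p under 0.05 in the same Fisher's exact test was reached by 12 tiles, 10 of them lower in late NCCs. How many of all tiles reached it was not counted, so these numbers have no background to be set against. The median difference was -1.31 points over the 130 tiles and -0.85 points over all tiles. The largest fall was 24.6 points. From late NCCs to melanophores 16 tiles were called lower and 0 higher, where the genome-wide shares were 2.65% and 0.0645%. These 16 were 12.3% of the 130 tiles. From late NCCs to iridophores 33 tiles were called lower, 25.4% of the 130 tiles and 2.67% of all tiles, and 1 tile was called higher, where the genome-wide share was 0.0851%. Both comparisons share the late NCC library. In the direct comparison of the pigment cells, 15 tiles, 11.5% of the 130, were called lower in iridophores than in melanophores and 0 were called higher. Genome-wide those shares were 0.671% and 0.541%. The median difference from melanophores to iridophores was -3.30 points at tfec and -0.41 points over all tiles. The window is centred on a region that the study called in these same libraries, so a share above the genome-wide one is in part fixed by how the window was placed.

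At single CpGs under the same rule, 1 of the 1250 CpGs was called lower from early to late NCCs (0.135% of CpGs genome-wide) and 0 higher (0.0491%). From late NCCs, 117 were called lower in melanophores (genome-wide 2.94%) and 269 in iridophores (genome-wide 2.65%). Between the pigment cells 134 were called lower in iridophores than in melanophores (genome-wide 0.676%) and 5 higher (0.665%). Those 5, at 5982101, 5982117, 5992342, 6017849 and 6056558, lie outside the drawn regions and are named after their values were seen. The one with the largest difference, at 6017849, had 31.6% (57 reads) in melanophores against 87.2% (39 reads) in iridophores. The 1 CpG called between the NCC stages lies at position 6000844 and is named here after its values were seen. The early NCC level was 93.9% (66 reads) and the late NCC level 60.7% (84 reads). Melanophores had 10.8% (83 reads) and iridophores 16.1% (56 reads). The CpG was picked by this call, so its lower level at 24 hpf is fixed by that choice. The 1 call is 0.08% of the 1250 CpGs, under the genome-wide 0.135%, and gives no result for the locus.

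The study draws 12 regions at tfec that changed in iridophores in methylation (solo DMRs), in accessibility (solo DARs) or in both (DMARs). They were read by eye from a drawing and hold 184 of the used CpGs. Their methylation changes were called on these libraries, so the low iridophore level of the DMRs and DMARs follows from how they were chosen. The levels in the other libraries describe when and where else the same stretches were low. Over the 12 regions the median level was 97.0% in early and 92.3% in late NCCs, against 62.6% in melanophores and 28.6% in iridophores. All 12 had a lower mean in late than in early NCCs, in melanophores than in late NCCs and in iridophores than in melanophores. The last of these sets the pigment cells side by side and is not a step in time. For the first of these comparisons the 95% Newcombe interval of the read-share difference included 0 in 6 of the 12. For the second it included 0 in the region 37.2 kb upstream. For the last it included 0 in the regions 22.5 kb upstream and 4.17 kb on the gene side. In the region 22.5 kb upstream the read share itself was 2.09 points higher in iridophores than in melanophores. The melanophore level ran from 14.1% to 86.6% and that of iridophores from 8.94% to 45.5%. The choice of regions by a change in iridophores limits the iridophore range but not that of melanophores. The narrower iridophore range is thus in part fixed by that choice.

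**Figure D2:**
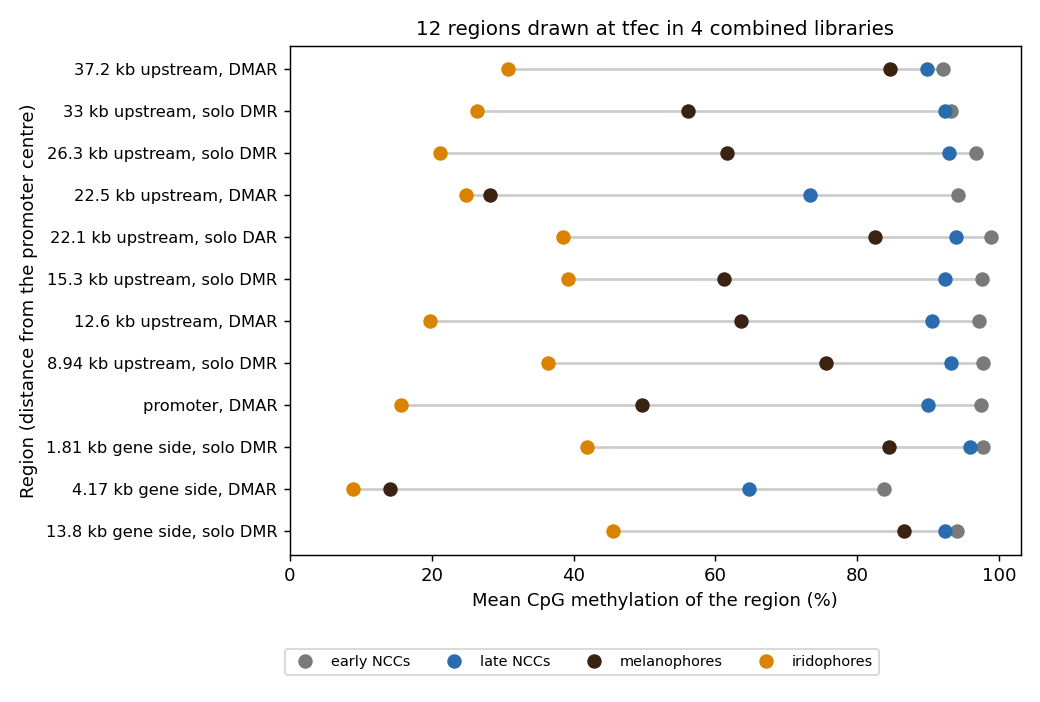
Mean CpG methylation (%) of the 12 drawn regions, 1 line per region ordered along the chromosome, with 1 point for each combined library and no error bars, since replicates were combined. The iridophore point is the lowest in all 12 regions, and the melanophore point lies beside it only in the regions 22.5 kb upstream and 4.17 kb on the gene side.

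The promoter DMAR was the longest of these regions in used CpGs, with 46 between positions 6022683 and 6024372. Early NCCs had a level of 97.4% there, on 1246 reads summed over its CpGs, and late NCCs had 89.95% on 1781 reads. Melanophores had 49.6% (2002 reads) and iridophores 15.7% (1245 reads). The SD over its CpGs was 3.59, 9.61, 29.9 and 15.3 points in the same order, so the CpGs differed most among themselves in melanophores. The difference of the means was -7.45 points from early to late NCCs, with a 95% Newcombe interval for the share of methylated reads of -10.5 to -7.06. From late NCCs it was -40.3 points to melanophores (interval of the read share -47.3 to -42.0) and -74.2 points to iridophores (-73.2 to -68.0). From melanophores to iridophores it was -33.9 points (-29.0 to -22.9). A mean over CpGs and a share of reads weight the CpGs differently, which is why a mean can lie outside the interval of the read share.

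Within the promoter region the loss was broad in iridophores and patterned in melanophores. In early NCCs all 46 CpGs were above 80%, and the lowest was at 84.6%. In late NCCs 39 were above 80% and the lowest was at 64.0%. In melanophores 28 CpGs were below 50%, 9 of them below 20%, while 12 stayed above 80%. In iridophores 44 were below 50%, 39 of them below 20%, and 1 was above 80%. Called as single CpGs, 0 of the 46 were lower from early to late NCCs (genome-wide 0.135%). From late NCCs 28 were lower in melanophores (genome-wide 2.94%) and 44 in iridophores (genome-wide 2.65%). From melanophores to iridophores 13 were lower (genome-wide 0.676%). The study drew this region as a change in iridophores on these libraries, so the iridophore counts are in part fixed by that choice.

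Runs here and in later paragraphs count used CpGs only and pass over CpGs with fewer reads. The promoter region held 52 CpGs with at least 1 read in all 4 libraries, against the 46 used. The low CpGs of iridophores formed 1 run of 44 used CpGs below 50%, from 6022823 to 6024328. This run spans 1506 bp and has a mean of 13.0%. In melanophores there were 2 runs inside it. The first held 12 CpGs from 6023032 to 6023492 (461 bp, mean 27.8%), and the second 16 CpGs from 6023755 to 6024175 (421 bp, mean 28.3%). The CpG at 6023562, which parts these runs, had 76.9% in melanophores on only 13 reads (95% Wilson interval 49.7% to 91.8%) and 0% on 6 reads in iridophores. The division into 2 runs thus rests on 1 thinly covered CpG. Each run had a core of 4 successive CpGs below 20%, at 6023234 to 6023442 with a mean of 12.6% and at 6024006 to 6024058 with a mean of 14.1%. The CpG at 6023397, in the first core, had 100% (10 reads) in early and 64.0% (25 reads) in late NCCs, while melanophores had 3.12% (32 reads) and iridophores 3.70% (27 reads). At the cores the pigment cells were thus both low, and they parted at the edges of the region. Some CpGs between the cores were higher in melanophores too, but none of them was called from melanophores to iridophores.

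At the upstream edge the CpG at 6022823 was high in late NCCs (95.2%, 21 reads) and in melanophores (84.0%, 25 reads) and low in iridophores (15.8%, 19 reads). The call from melanophores to iridophores held there (adjusted p = 0.00123 in Fisher's exact test over all CpGs of the genome). From this CpG to the one at 6022957, melanophores lay between 76.5% and 92.0% and iridophores between 9.09% and 16.7%. On the gene side the melanophore level rose from 27.7% at 6024175 to 79.2% at 6024246, where iridophores had 9.76% and 12.5%. The first CpG of the region, at 6022683, was high everywhere, with 97.8%, 96.4%, 94.3% and 85.2% on 88 to 123 reads. Its coverage was more than 4 times the genome-wide median in each library, and whether all its reads belong there was not examined. If its level is taken as it stands, the low stretch of iridophores began between 6022683 and 6022823. That limit rests on this 1 CpG.

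**Figure D3:**
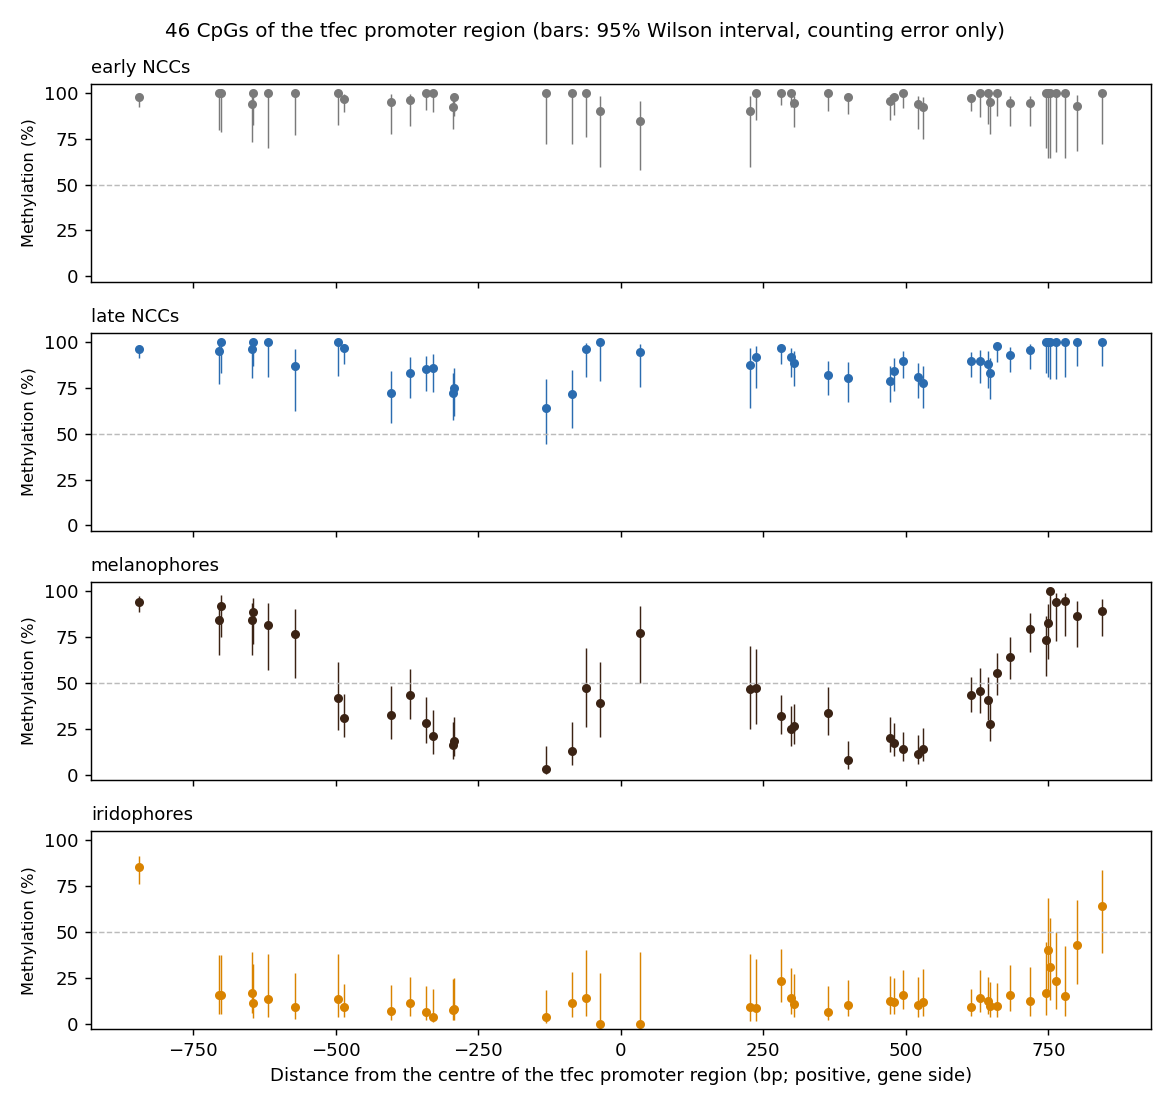
Methylation level (%) of the 46 used CpGs of the promoter region against distance in bp from its centre, 1 panel for each combined library, with 95% Wilson intervals that cover counting error only and a dashed line at 50%. Iridophores are low over nearly the whole width, melanophores dip in 2 places with high edges, and late NCCs dip shallowly at about the same places.

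Late NCCs had shallow dips where melanophores were lowest. In steps of 200 bp along the region, late NCCs had 79.0% in the step from 6023124 to 6023236, 77.2% from 6023397 to 6023467 and 81.9% from 6023891 to 6024058. The other 6 steps had 91.3% to 100%. Melanophores had 26.6%, 21.0% and 16.8% in the same 3 steps, their lowest values, and iridophores 7.29%, 9.70% and 11.3%. Early NCCs had 96.9%, 100% and 96.7% there, so the dips were not visible at 15 somites at this depth. Across the 46 CpGs the Spearman correlation of the levels was 0.79 between late NCCs and melanophores (Pearson 0.77), 0.59 between late NCCs and iridophores (Pearson 0.39) and 0.29 between early and late NCCs (Pearson 0.14). Early NCC levels ran only from 84.6% to 100%, with a median of 100%, which leaves little spread to correlate. The low value for early and late NCCs therefore cannot tell whether their patterns differ. In iridophores 39 of the 46 CpGs were below 20%, which limits the spread there too. The lower value for late NCCs and iridophores thus cannot tell whether late NCCs were more like melanophores. All these correlations describe neighbouring CpGs that share reads within a library, and CpGs are not replicates.

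Among the other DMARs, those at 22.5 kb upstream and 4.17 kb into the gene were low in both pigment cells. The upstream one (6 CpGs from 6000844 to 6001144) had 94.2% in early and 73.3% in late NCCs, against 28.2% in melanophores and 24.9% in iridophores, on 223 to 347 reads. The intronic one (9 CpGs from 6027455 to 6027936) had 83.7%, 64.8%, 14.1% and 8.94%, on 130 to 254 reads. From melanophores to iridophores the interval of the read-share difference included 0 in both, at -4.41 to 8.96 points upstream and -7.97 to 1.77 points in the intron. These were also the regions with the largest falls between the NCC stages, of 20.9 points (interval of the read share -30.1 to -17.9) and 18.9 points (-35.3 to -16.6). The tile with the largest fall between the NCC stages, 6027501 to 6028000, lies in the intronic one and went from 80.3% to 55.6% (adjusted p = 3.11e-05 in the same Fisher's exact test over all tiles).

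The DMARs at 37.2 kb and 12.6 kb upstream separated the pigment cells. The distal one (12 CpGs from 5986191 to 5986539) had 92.1% in early and 89.8% in late NCCs, 84.6% in melanophores but 30.8% in iridophores, on 205 to 354 reads. The interval of the read share was -6.22 to 3.47 points from late NCCs to melanophores and -63.0 to -50.2 points from melanophores to iridophores. The nearer one (21 CpGs from 6010344 to 6011510) had 97.2%, 90.5%, 63.6% and 19.8%, on 484 to 919 reads. It was not uniform in melanophores. The tile from 6010501 had 71.1% in melanophores against 11.6% for iridophores, the largest fall between the pigment cells in the window at 59.5 points, while the next tile, from 6011001, had 28.2% and 7.53%.

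The 6 solo DMRs and the solo DAR were high in both NCC libraries, between 92.3% and 98.9%, and mostly intermediate or high in melanophores. Upstream, the solo DMR at 33.0 kb (11 CpGs from 5990270 to 5990712) had 56.1% in melanophores and 26.4% in iridophores. The one at 26.3 kb (14 CpGs from 5996970 to 5997466) had 61.6% and 21.1%, and the one at 15.3 kb (10 CpGs from 6008037 to 6008412) had 61.2% and 39.2%. These 3 fell by at least 30 points from late NCCs in melanophores too. The solo DMR at 8.94 kb (20 CpGs from 6014238 to 6014929) had 75.6% and 36.4%. The solo DAR at 22.1 kb (4 CpGs from 6001265 to 6001557) had 82.4% on 81 reads and 38.5% on 42 reads. Its difference from late NCCs to iridophores was -55.4 points, although the study draws it for accessibility alone. Its neighbour, the DMAR at 22.5 kb, was low in both pigment cells, so adjoining drawn regions differed in melanophores by more than 50 points.

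In the introns, the solo DMR at 1.81 kb (19 CpGs from 6025067 to 6025615) had 84.5% in melanophores and 41.9% in iridophores, on 1333 and 884 reads. The solo DMR at 13.8 kb (12 CpGs from 6037176 to 6037458) had 86.6% and 45.5%, on 682 and 422 reads. In both, melanophores stayed within 12 points of late NCCs, at 95.9% and 92.3%. Counted over the 12 regions, the fall was at least 30 points in 0 from early to late NCCs, in 6 from late NCCs to melanophores, in 12 from late NCCs to iridophores and in 8 from melanophores to iridophores. The study asked for a methylation difference of at least 30% in its DMRs and drew these regions as changes in iridophores. The 12 therefore follows from that choice, except for the solo DAR. The 8 is in part fixed by it too, because the same iridophore levels enter that difference.

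Lower methylation was not confined to the drawn regions. Of the 130 tiles, 24 touched a drawn region and 106 did not. The 33 tiles called lower in iridophores than in late NCCs were 21 that touched a drawn region and 12 that did not, or 11.3% of the 106 (genome-wide 2.67%). In melanophores the 16 were 9 and 7 (6.60% of the 106, genome-wide 2.65%). Between the pigment cells the 15 were 11 and 4 (3.77% of the 106, genome-wide 0.671%). The drawn regions were chosen for changes in iridophores on these libraries, so the calls in them are in part fixed. Whether the study called the other tiles in regions it did not draw was not checked.

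The deepest of the other changes lay about 9 kb on the gene side. The tile from 6032501 to 6033000 (13 CpGs) had 92.0% in early and 92.3% in late NCCs, against 36.1% in melanophores and 13.8% in iridophores, on 208 to 368 reads. Its fall of 56.2 points to melanophores was the largest of that comparison in the window (adjusted p = 7.38e-61 by Fisher's exact test). The next tile, from 6033001 to 6033500 (10 CpGs), had 96.1%, 93.0%, 45.0% and 7.40%, on 424 to 673 reads. Its fall of 85.6 points to iridophores was the largest of that comparison (adjusted p = 2.57e-169 in the same Fisher's exact test). Iridophores had a run of 23 CpGs below 50% here, from 6032504 to 6033350 (847 bp, mean 11.03%), and melanophores a run of 14 CpGs from 6032650 to 6033016. As at the promoter, the melanophore run lay inside the longer iridophore run.

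Further called tiles outside the drawn regions are described after their values were seen. Some were lower in both pigment cells than in late NCCs, some mainly in iridophores and some mainly in melanophores. At 41.8 kb upstream the tile from 5981501 had 90.7% in early and 70.8% in late NCCs, against 29.5% in melanophores and 27.9% in iridophores. Its neighbour, from 5982001, had 46.5% in melanophores and 56.2% in iridophores from 91.1% in late NCCs. In the gene the tile from 6029001 had 85.5% in late NCCs, and its level was 68.4% in melanophores but 26.6% in iridophores. The tile from 6039501 was at 80.6% in late NCCs and 80.4% in melanophores, and at 41.8% in iridophores.

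The tiles from 5992001 and 6056501 were called lower than late NCCs in melanophores only, and there the melanophore level was below that of iridophores. From 95.2% in late NCCs, the first went to 61.8% in melanophores and to 73.3% in iridophores. The second went from 88.5% to 57.7% and 79.0%. The differences of iridophores from melanophores, 11.5 and 21.3 points, had adjusted p = 2.64e-06 and 3.34e-05 by Fisher's exact test but were under the 30 points of a call.

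The other tiles among the 5 largest falls of each comparison lay in drawn regions. From late NCCs to melanophores these were the tiles from 6023001 and 6023501 in the promoter region, with differences of -55.7 and -53.0 points, the tile from 6000501 with -54.2 points and the tile from 6011001 with -51.7 points. In iridophores the differences from late NCCs were -82.7 points in the tile from 6010501, -80.1 in that from 5997001 and -77.5 in that from 6023501. Between the pigment cells, after the tile from 6010501, the difference was -55.9 points in the tile from 5986001, -50.7 in that from 6022501, -48.8 in that from 5997001 and -47.1 in that from 5986501. The tile from 6022501 is the upstream edge of the promoter region, with 83.1% in melanophores and 32.4% in iridophores.

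The only tile called higher at tfec, from 6071001 to 6071500 (3 CpGs), had 41.2% in early and 49.3% in late NCCs, against 78.4% in melanophores and 83.3% in iridophores. It rested on 21 to 40 reads, and the adjusted p from late NCCs to iridophores was 0.0288 by Fisher's exact test, the weakest of all calls in that comparison at tfec. When 10 reads were asked of each CpG, no tile was called higher, but this tile was then not tested. Its CpG at 6071104 had 5 reads in early NCCs and dropped out, which left fewer than the 3 CpGs a tile needs. That setting therefore cannot tell whether the call holds.

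Calls of lower methylation in iridophores were not spread over the whole window. In bins of 10 kb from the upstream end of the window, the tiles called lower in iridophores than in late NCCs numbered 4, 4, 3, 4, 6, 8, 4, 0, 0 and 0. In melanophores they numbered 3, 2, 2, 2, 2, 4, 0, 0, 1 and 0. The bins held 12, 19, 10, 12, 15, 10, 15, 10, 13 and 14 tiles. Genome-wide, 2.67% of tiles were called lower in iridophores and 2.65% in melanophores. At such shares a bin of this size would often hold 0 calls, so the bins with 0 are not set apart from the genome. The bin with 8 iridophore calls held 10 tiles, runs from the end of the promoter region into the gene and had a median tile of 92.5% in late NCCs, of 68.1% in melanophores and of 33.2% in iridophores. Past the last of these calls on the gene side, levels still differed in places. The melanophore call there is the tile from 6056501, the tile called higher lies near the end of the window, and the tile from 6072001 (9 CpGs) had 78.9% in late NCCs against 57.1% in iridophores, a difference of -21.9 points that was under the 30 points of a call. On the upstream side, calls reached to the edge of the window, so where they end there was not determined.

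Within the bins without a lower iridophore call lay a stretch that was unmethylated in every library. It held 25 CpGs from 6054017 to 6054914 (898 bp), with means of 0.27% in early and 0.19% in late NCCs, against 1.31% in melanophores and 0.98% in iridophores. Its tile from 6054501 to 6055000 was the lowest of the window in each library, at 0%, 0%, 0.37% and 0.24% on 403 to 679 reads. The highest tile was at 100% in early NCCs, where 4 tiles tied. In late NCCs it was the tile from 6043501, at 98.4% on 145 reads, and in both pigment cells the tile from 6057001, at 100% on 29 and 22 reads. What the annotation places at the unmethylated stretch was not examined.

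Methylation was also higher in pigment cells at scattered single CpGs. There were 18 such CpGs of the 1250, 16 called higher than late NCCs in melanophores (genome-wide 0.377%) and 9 in iridophores (genome-wide 0.321%), and they are described after their values were seen. None lay in a drawn region (0 of 18), which hold 14.7% of the used CpGs and were chosen for changes in iridophores. A call of at least 30 points holds the late NCC level to 70% or less and the pigment cell level to 30% or more, so the levels below are in part fixed by the rule. Their late NCC level was between 14.9% and 64.7% with a median of 54.0%, and their early NCC level had a median of 50.5%. In 17 of the 18, late NCCs were between 25% and 75%. In melanophores their median was 96.9%, with 15 at 90% or more, and in iridophores it was 93.4%, with 11 at 90% or more. The CpGs on either side of each, which were not chosen by level, had a median of 95.1% in late NCCs. The NCC and pigment cell libraries come from different strains, and whether the DNA sequence differs at these CpGs was not tested.

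**Figure D4:**
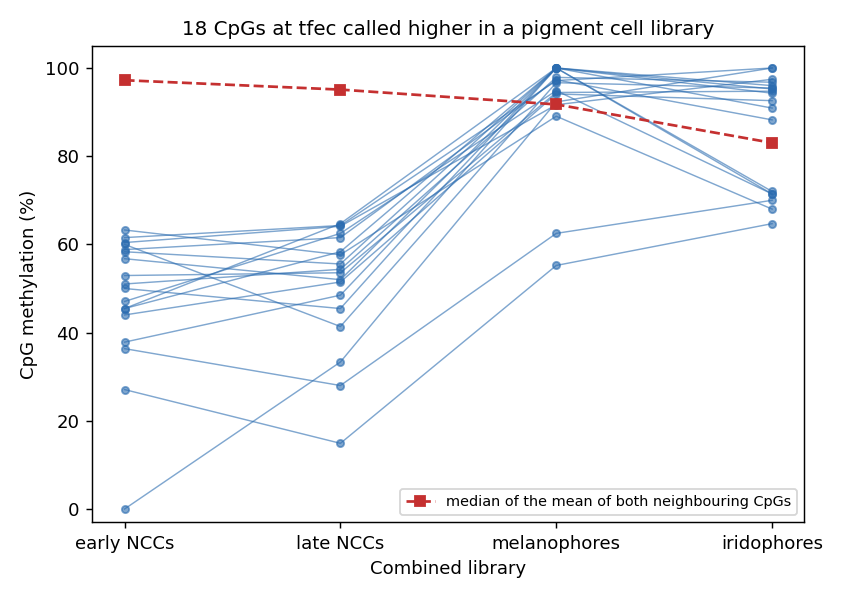
Methylation level (%) of the 18 CpGs at tfec called higher than late NCCs in melanophores or iridophores, 1 line per CpG over the 4 combined libraries. The dashed red line is the median over the 18 of the mean of both neighbouring used CpGs, which is 95.1% in late NCCs, where the CpGs themselves have a median of 54.0%.

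For comparison, windows of the same length were measured around mitfa, the paralog of tfec, and around alx4a, an aristaless-related homeobox gene. At mitfa, 15 of 124 tiles were called lower from late NCCs to melanophores and 12 from late NCCs to iridophores, and between the pigment cells 3 were lower and 5 higher in iridophores. At alx4a the counts were 9 and 38 of 137, and 27 lower and 2 higher. At tfec they were 16 and 33 of 130, and 15 lower and 0 higher. Over all tiles of the genome, 2.65% were called lower from late NCCs to melanophores and 2.67% from late NCCs to iridophores. Between the pigment cells, 0.671% were lower and 0.541% higher in iridophores. All 3 windows lie at loci where the study draws regions called on these libraries, so their counts are in part fixed by that choice. The 3 windows were not tested against each other. The mitfa promoter region that the study draws (13 CpGs on chromosome 6 from 43428696 to 43429227) had 97.7% in early and 90.3% in late NCCs, against 36.4% in melanophores and 26.1% in iridophores. Its melanophore level was therefore nearer to that of iridophores than at the tfec promoter, where the levels were 49.6% and 15.7%. The regions differ in length and were not tested against each other.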

How the data were processed

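WGBS libraries of early NCCs, late NCCs, melanophores and iridophores were analysed, 1 combined library per cell type. The authors used Cutadapt for trimming, Bismark for alignment (build danRer10) and for extraction of CpG methylation together with their own script, and Picard against duplicates (versions not given in the sources used here). The deposited methylation level is the fraction of methylated reads at a CpG, and the deposited read count is its raw coverage, pooled over 2 replicates. Genome-wide median coverage was 17, 25, 29 and 21 reads in early NCCs, late NCCs, melanophores and iridophores.

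From these values, methylated reads were recovered as level times reads. CpGs needed at least 5 reads in all 4 libraries and tiles 3 such CpGs. Fisher's exact tests and Benjamini-Hochberg adjustment covered 1742304 tiles or 16909511 CpGs of 25 chromosomes, with Python 3.11.15, numpy 2.4.6, pandas 2.3.3, scipy 1.17.1 and numba 0.67.0. Positions count from 1, taking the first position column as 0-based. Libraries were matched to groups by the stage or cell type in the names of the deposited tables. The pigment cell tables carry Mel and Iri together with NCC in their names and were taken as melanophores and iridophores, so every pigment cell value rests on that reading. Alternatives were other minimum reads, tile sizes, offsets, thresholds, weights and single CpGs.

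Text names each drawn region, the 5 largest called falls and rises per comparison, the extreme tiles of each library, and CpGs of the promoter region. CpGs outside it were chosen after their values were seen. The window, regions and lists were chosen with earlier results of these data known. Motifs and further promoters were not analysed here, for want of a danRer10 sequence and annotation. ATAC-seq and mRNA-seq were not used here.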

Additional observations from a re-analysis of the deposited data

Results flagged for a closer look

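At 5 tiles the change from late NCCs differed most between the pigment cells, tested on the reads of melanophores against those of iridophores. By Fisher's exact test, adjusted over all tiles, the difference of iridophores from melanophores was -59.5 points in the tile from 6010501 (adjusted p = 2.64e-58), -55.9 points in the tile from 5986001 (4.46e-46), -50.7 points in the tile from 6022501 (1.05e-21), -48.8 points in the tile from 5997001 (3.62e-76) and -47.1 points in the tile from 5986501 (0.000784, on 41 and 26 reads). All 5 touch a drawn region, and those regions were called by the study as changes in iridophores on these same libraries. No cause was tested.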

How the results depend on the processing

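No paired analysis was possible because the replicates of each cell type were combined in the files. For the same reason no replicate could be left out. Every promoter difference was negative under each of its 5 alternatives. Weighting by reads gave -44.7 points from late NCCs to melanophores, -70.7 to iridophores and -26.0 between the pigment cells, and a minimum of 10 reads gave -45.2 points for the first and -28.1 for the last. The count of tiles called from early to late NCCs became 1 with a minimum of 10 reads, 1 with read-weighted levels, 2 with 20 points and 1 with single CpGs. With tiles of 1000 bp, 22 of 84 tiles were called in iridophores and 10 in melanophores against late NCCs. With 40 points, 10 tiles were called from late NCCs to melanophores and 9 between the pigment cells, and with 20 points 33 were called between the pigment cells. Single CpGs gave 278, 133 and 139 calls of 1250 in iridophores, melanophores and between them. All counts in this paragraph add lower and higher calls. Of the single CpGs, 269, 117 and 134 were lower. For tiles under these alternatives the genome-wide shares were not counted, so the tile counts have no background to be set against. The other alternatives stayed within 1.5 times the reported counts. The level of a single CpG rests on few reads, with medians of 17 to 29 over the genome.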
